A study of Homo sapiens with 18 samples.

Results

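The genes described here encode the nuclear pore complex and the receptors that carry cargo through it. They were chosen by gene symbol, with no measured value in the rule: the numbered nucleoporins, the other named pore proteins, the importins, exportins and transportins, the Ran cycle, the mRNA export receptor and the RANBP2-like RGPD genes. The rule found 74 of the 13661 genes in the table. A filter that asked for a mean of at least 10 reads over the 9 libraries and reads in every gradient left 71 of them among 12720 genes. POM121L2, RGPD1 and RGPD2, with a mean of 2.22, 6.11 and 8.11 reads, did not pass it.

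All groups are HEK293, an established human embryonic kidney cell line, kept for 12 h in DMSO vehicle with no drug. Lysate of 3 biological replicates was spun through a sucrose gradient, and each gradient was divided into monosomes (mRNA with 1 ribosome), light polysomes and heavy polysomes, giving 9 libraries in 3 groups of 3. The study's 9 libraries of cells given 100 uM minocycline were not analysed here. The labels call the replicates biological, and all come from 1 cell line.

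The libraries held 13447139 to 24441159 reads assigned to genes. Of 10 markers of HEK293 cells, 10 passed the filter, with a median of 858 normalized counts. Of 10 markers of other cell types, 3 were in the table and 2 passed the filter, the highest being CDX2 at 337 normalized counts. The HEK293 markers KRT18 (269), LHX1 (228), INA (112), KRT8 (105) and PAX2 (87.6) lay below CDX2, and the other HEK293 markers above it. Light polysome library 2 stood apart: its mean correlation was 0.894 with the other light libraries and 0.940 with the heavy ones. Counts of called members in the contrasts that use light polysomes are given with and without it. Every load includes this library, and loads were tested without replicate 2 as a whole but not without this library alone.

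As background, the pore is a ring-shaped channel in the nuclear envelope. Outer and inner rings form its scaffold, membrane proteins anchor it, and nucleoporins with phenylalanine-glycine repeats fill the channel and its filaments. Importins and exportins bind cargo and pass through this channel, and the small GTPase Ran gives transport its direction. RCC1 loads Ran with GTP in the nucleus, RANGAP1 with RANBP1 and RANBP2 triggers hydrolysis in the cytoplasm, and NUTF2 returns Ran to the nucleus. Bulk mRNA leaves by another route, bound by the NXF1 and NXT1 pair.

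Several members are copies of each other, which limits what a read of 75 nt can tell apart. RANBP2, the large filament protein on the cytoplasmic face, has a family of partial copies on the same chromosome, the RGPD genes. The first 75 coding bases, 1 read length, are shown for RANBP2 and for the RGPD genes that passed the filter, because the light polysome results below turn on them. They are from the GENCODE annotation on GRCh38, 5′ to 3′ on the coding strand, and span 2 exons in each gene. Capitals mark bases that differ from RANBP2.
RANBP2: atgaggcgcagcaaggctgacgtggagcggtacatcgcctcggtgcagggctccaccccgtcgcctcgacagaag
RGPD3: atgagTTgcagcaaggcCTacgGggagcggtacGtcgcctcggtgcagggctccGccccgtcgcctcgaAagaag
RGPD4: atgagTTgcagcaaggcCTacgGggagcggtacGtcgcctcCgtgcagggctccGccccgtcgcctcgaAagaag
RGPD5: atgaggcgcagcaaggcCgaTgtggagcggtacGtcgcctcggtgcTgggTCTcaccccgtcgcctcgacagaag
RGPD6: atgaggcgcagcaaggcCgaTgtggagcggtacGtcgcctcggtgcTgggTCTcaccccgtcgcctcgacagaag
RGPD8: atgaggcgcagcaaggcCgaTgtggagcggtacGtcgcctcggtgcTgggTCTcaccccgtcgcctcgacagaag
The stretches lie at chr2:108719607-108729134 on the plus strand for RANBP2, chr2:106459330-106468288 minus for RGPD3, chr2:107827014-107836604 plus for RGPD4, chr2:109794466-109801785 plus for RGPD5, chr2:110569722-110577024 minus for RGPD6 and chr2:112424305-112433453 minus for RGPD8. RGPD5, RGPD6 and RGPD8 print the same letters, 7 bases away from RANBP2, while RGPD3 differs from RANBP2 at 8 bases and RGPD4 at 9. Over the chosen transcript of each gene, the share of 75-nt windows also found in transcripts of other genes was 100% for RGPD5 and RGPD6, 92.8% for RGPD8, 73.2% for RGPD3, 69.7% for RGPD4 and 20.3% for RANBP2. POM121 (51.4%) and POM121C (51.8%) share windows mainly with each other, and IPO4 (95.1%) shares them with an overlapping gene model. RANBP1 shared 20.1% and NUP62 14.3%. Single values of these genes are uncertain, since no source used here says how the counting treated reads with several matches.

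The first question was how heavily these mRNAs were loaded with ribosomes. The measure is the mean ribosome load, the percentages of a gene in monosomes, light and heavy polysomes weighted by 1, 2.5 and 6. Each library was scaled so that the typical gene has the same level in every fraction, so a load ranks a gene against other genes and is not a count of ribosomes. In bulk lysate, fewer cells with an mRNA in a fraction and less of it per cell cannot be told apart.

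The nuclear pore and transport mRNAs lay mostly above the median gene. Their median load was 3.60 ± 0.20 (SD, n = 3 gradients), with 3.57, 3.81 and 3.42 in replicates 1, 2 and 3, and the median of all genes was 3.17 ± 0.0091. Of the 71 members, 57 had a mean load above the median gene. In limma's test of log2 load against the median gene, adjusted over all 12720 genes, 21 members were higher (29.6%, against 22% of all genes tested) and 3 were lower (4.23%, against 24.7%). The members' share of higher genes is thus not far from that of the table, and their share of lower genes is smaller; no test was made of either gap. All 24 called members lay on the same side of the median gene in each gradient, which a call on these same loads all but requires.

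**Figure D1:**
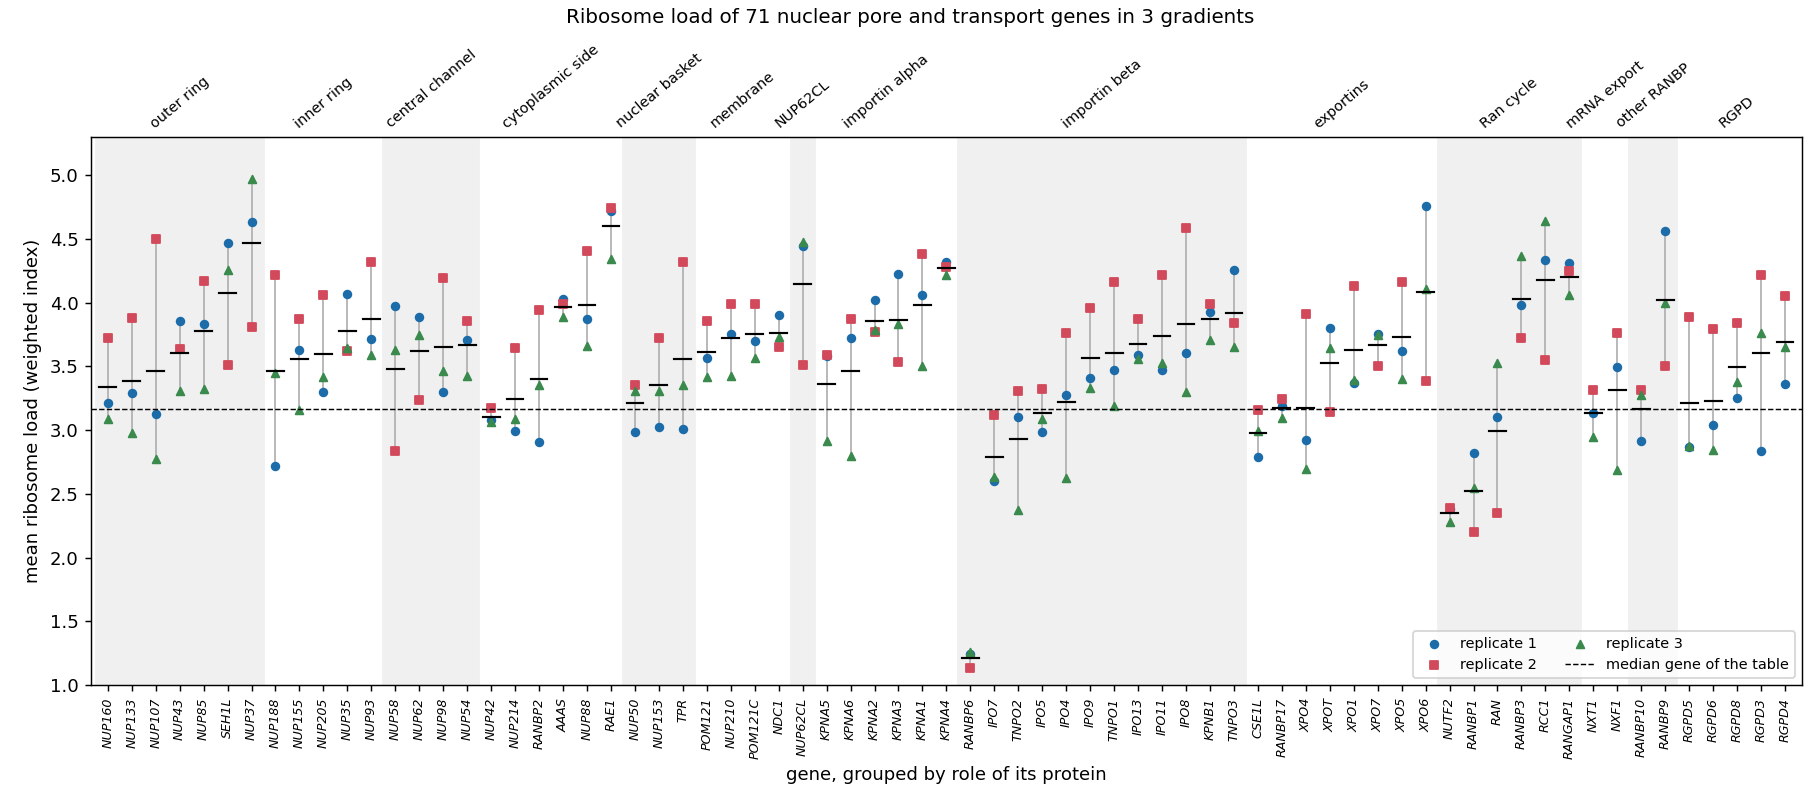
Mean ribosome load (y axis, a weighted index) of the 71 members that passed the filter, grouped by role along the x axis; symbols are the 3 replicates, black bars their mean and the dashed line the median gene. RANBP6 lies alone at 1.21, NUTF2 and RANBP1 come next, and RAE1 and NUP37 are at the top.

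The count of higher members depended on the replicates and on the reference. It was 4, 25 and 13 without replicate 1, 2 and 3, and 32 when loads were set against the mean gene rather than the median one, where the table's split moved from 2798 higher and 3139 lower to 3537 and 2713. RAE1, NUP37, KPNA4 and RANGAP1 were called higher with any 1 replicate left out, and RANBP6 and NUTF2 were called lower.

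RAE1, which binds NUP98 and takes part in mRNA export, had the highest load of all members, at 4.72, 4.74 and 4.34 in the 3 gradients. It stood at percentile 98.3 of all genes, and 69.8%, 68.0% and 61.6% of its normalized count was in heavy polysomes. Its log2 load was 0.54 ± 0.072 (SE, n = 3) above the median gene (limma adjusted p = 0.00103). NUP37, a small outer ring subunit, followed at 4.63, 3.81 and 4.97, with the low value in replicate 2. KPNA4, an importin alpha, had 4.32, 4.28 and 4.21, with all gradients close together.

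At the other end stood RANBP6, an importin beta family protein that resembles IPO5. Its load was 1.24, 1.13 and 1.26, and 92.4%, 96.1% and 91.3% of its normalized count lay in monosomes. Normalized counts were 5945, 6108 and 5057 in monosomes. Light polysomes held 252, 112 and 275 and heavy polysomes 237, 136 and 209, so monosomes lay above both other fractions, and light and heavy polysomes overlapped. Its log2 load was −1.38 ± 0.087 (SE, n = 3) from the median gene (limma adjusted p = 7.69e-05). Only 29 of the 12720 genes had a lower mean load.

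RANBP6 lies at chr9:6011043-6015625 on GRCh38, has a single exon and a coding length of 3315 nt, and shares 0.0222% of its windows with any other gene. Of the 1779 genes with a coding length of at least 3000 nt, RANBP6 was the 1 gene with at least 90% in monosomes; both limits were set after its value was seen. Among all genes kept, 33 reached 90%. The 319 single-exon genes had a median load of 2.60 and a median of 48.0% in monosomes; 156 of them were lower and 16 higher than the median gene. RANBP6 is the 1 single-exon gene among the members that passed the filter. IPO5, which has 26 exons, had loads of 2.99, 3.33 and 3.09, close to the median gene. The log2 gap between IPO5 and RANBP6 was 1.26, 1.55 and 1.29 in the 3 gradients, a mean of 1.37 ± 0.16 (SD, n = 3); an exact sign permutation over 3 gradients cannot go below 0.25.

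NUTF2 and RANBP1 were the other members called lower. NUTF2 had loads of 2.38, 2.39 and 2.28, which barely spread. RANBP1 had 2.82, 2.20 and 2.55, and its call did not pass without replicate 1 (limma adjusted p = 0.0559) or without replicate 2 (limma adjusted p = 0.0511). Both have short coding regions, 381 nt for NUTF2 and 603 nt for RANBP1. By the share in light plus heavy polysomes neither passed (NUTF2 −8.71 percentage points, limma adjusted p = 0.27; RANBP1 −0.71 points, limma adjusted p = 0.939), and RANBP1 did not with no filter on low values (limma adjusted p = 0.0506). Neither resembled RANBP6 in the gradient: NUTF2 had 51.5%, 42.3% and 49.1% in light polysomes, and RANBP1 had 60.4%, 41.5% and 60.5%, while RANBP6 had 3.92%, 1.77% and 4.97%.

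**Figure D2:**
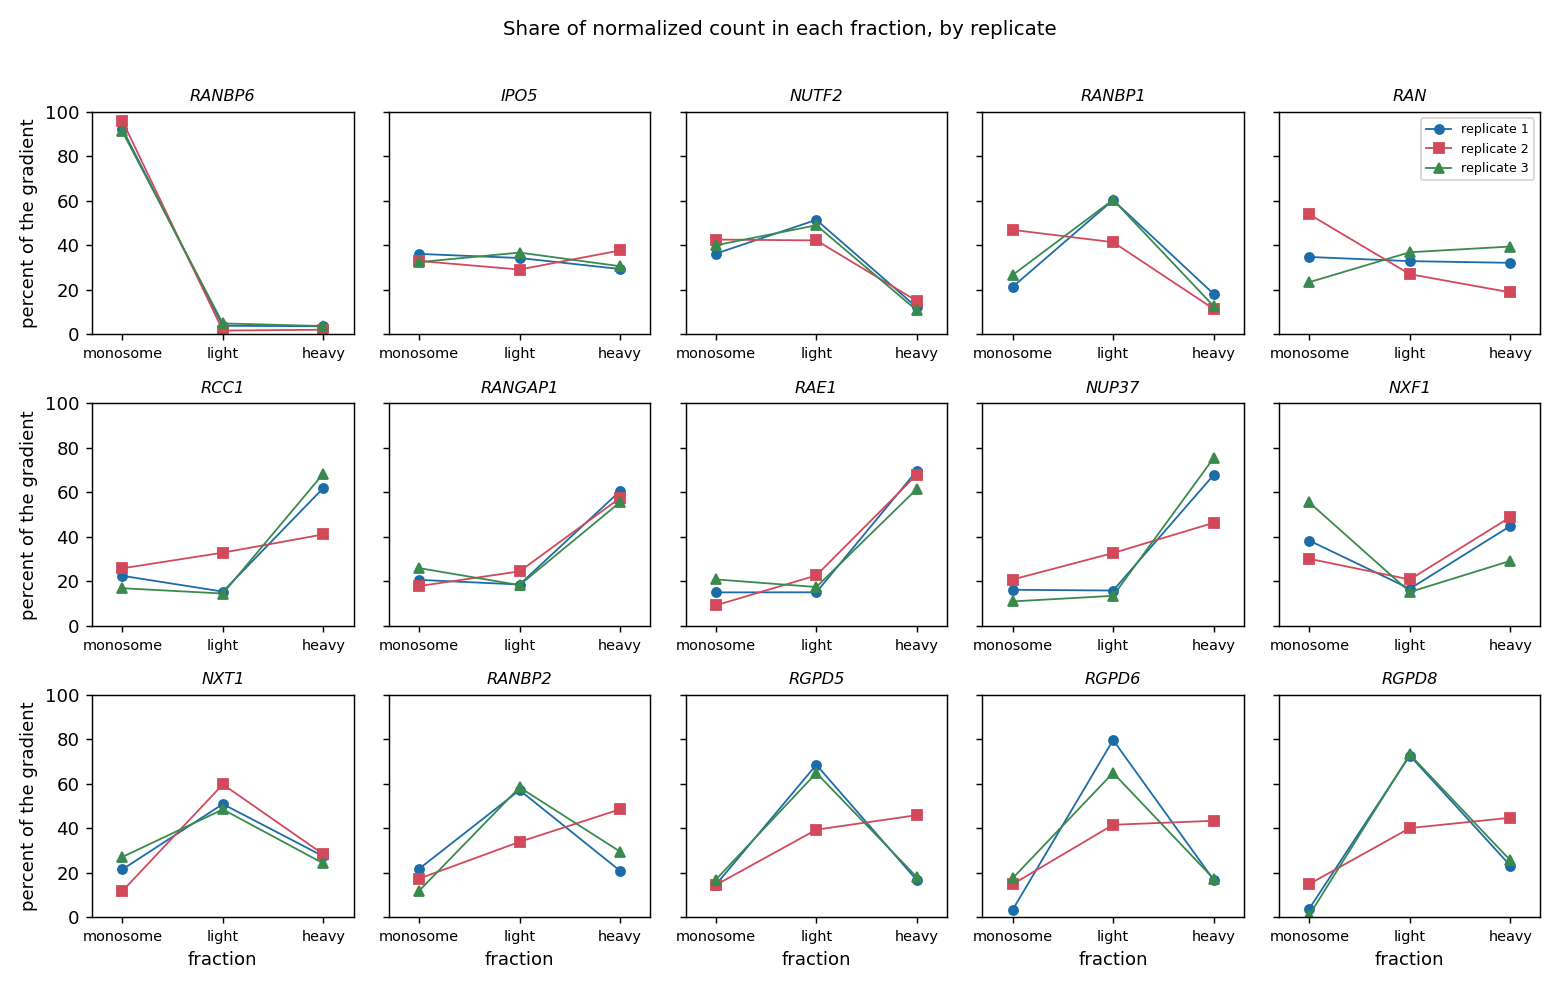
Percent of a gene's normalized count in monosomes, light and heavy polysomes (x axis) for 15 members, 1 line per replicate. RANBP6 is in monosomes in every replicate, RAE1 and RANGAP1 in heavy polysomes, and RANBP2, RGPD5, RGPD6 and RGPD8 peak in light polysomes in replicates 1 and 3 but not in replicate 2.

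Among the pore proteins, 9 of the 29 nucleoporins that passed the filter had a load above the median gene by the test and 0 were below it by the same limma test (12 higher and 0 lower at an unadjusted p under 0.05). Of all genes, 22% were higher and 24.7% lower, and the counts of each part of the pore below are to be read against these shares. The 9 became 2, 11 and 6 without replicate 1, 2 and 3, and 14 against the mean gene. Their median load was 3.67 ± 0.23 (SD, n = 3 gradients), and 28 of the 29 had a mean above the median gene; the exception was NUP42, which works with mRNA export factors on the cytoplasmic side, at 3.08, 3.18 and 3.06.

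The outer ring, the Y-shaped scaffold, had 2 of 7 members called higher, NUP37 and SEH1L. SEH1L, which also serves in amino acid signalling, had 4.47, 3.51 and 4.25. The lowest of the ring was NUP160 at 3.21, 3.73 and 3.09. NUP107, another scaffold subunit of the same ring, had the widest spread of any member that passed the filter, at 3.13, 4.50 and 2.77, and it did not pass the test. Subunits of 1 ring thus ran from a mean of 3.34 for NUP160 to 4.47 for NUP37, and replicate 2 was the highest gradient for the first and the lowest for the second.

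The inner ring had 2 of 5 members called higher, NUP35 and NUP93. NUP93, its linker subunit, had 3.72, 4.32 and 3.59, and NUP188, the lowest, had 2.72, 4.22 and 3.45. In the central channel 0 of 4 passed the limma test in either direction (1 higher and 0 lower at an unadjusted p under 0.05). NUP54 was the highest there at 3.71, 3.86 and 3.43, and NUP58 the lowest at 3.97, 2.83 and 3.63. The means of the channel subunits differ by less than the spread of NUP58 over the gradients.

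On the cytoplasmic side 3 of 6 were higher, RAE1, NUP88 and AAAS. AAAS, the protein lost in triple A syndrome, had 4.03, 3.99 and 3.88. In the nuclear basket 0 of 3 passed in either direction by limma, also at an unadjusted p under 0.05. TPR, the basket's long coiled-coil protein, was the highest at 3.01, 4.32 and 3.35, and NUP50 the lowest at 2.99, 3.36 and 3.31. Of the membrane proteins, NDC1 and POM121C were called higher, 2 of the 4 that passed the filter. Neither passed without replicate 1 (limma adjusted p = 0.315 for NDC1 and 0.238 for POM121C) or replicate 3 (0.161 and 0.116). With a mean of at least 100 reads POM121C did not pass (limma adjusted p = 0.0523). The log2 load of POM121C lay 0.052, 0.047 and 0.061 above that of POM121, with which it shares windows. NDC1 was the highest at 3.91, 3.65 and 3.73, and POM121 the lowest at 3.57, 3.86 and 3.42. POM121L2, with a mean of 2.22 reads, gives no usable load. NUP62CL, a short relative of NUP62 that was put in no role group, had 4.45, 3.51 and 4.47 and was called higher, but not without replicate 1 (limma adjusted p = 0.0991) or replicate 3 (limma adjusted p = 0.061).

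Among the 26 transport receptors, 7 were higher and 1, RANBP6, was lower, where 22% of all genes were higher and 24.7% lower. The share of higher receptors is thus not far from that of the table. The counts of the receptor groups and of the Ran cycle below are to be read against the same shares. The count of higher receptors was 1, 9 and 5 without replicate 1, 2 and 3, and 3 by polysome share. The importin alpha group, adaptors that read the classical nuclear localization signal, had 4 of 6 higher: KPNA1, KPNA2, KPNA3 and KPNA4. Without replicate 1 only KPNA4 was called, and the group's count was 2 without replicate 3 and 2 by polysome share. Its median load was 3.84 ± 0.20 (SD, n = 3 gradients). KPNA2, the member best known for its role in dividing cells, had 4.02, 3.77 and 3.79, with 53.0%, 45.6% and 47.1% in heavy polysomes. The lowest was KPNA5 at 3.58, 3.59 and 2.91, and KPNA6 also did not pass.

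Of 12 importin beta receptors, KPNB1 and TNPO3 were higher. KPNB1, the partner of importin alpha, had 3.93, 3.99 and 3.70, a log2 load 0.29 ± 0.080 (SE, n = 3) above the median gene (limma adjusted p = 0.0182). Its call did not pass without replicate 1 (limma adjusted p = 0.176) or 3 (0.0588), or by polysome share (0.314). TNPO3, which imports splicing factors rich in serine and arginine, had 4.26, 3.84 and 3.66. After RANBP6 the lowest was IPO7 at 2.60, 3.12 and 2.63, which did not pass. Its paralogue IPO8 had 3.60, 4.59 and 3.30, and the log2 gap between them was 0.47, 0.56 and 0.33, in the same direction in each gradient. TNPO1 exceeded TNPO2 likewise, by 0.16, 0.33 and 0.42. These pairs, and that of IPO5 with RANBP6, were chosen after their values were seen, and with 3 gradients the smallest exact p is 0.25.

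Of 8 exportins, 1 was higher: XPO6, which exports actin, at 4.76, 3.39 and 4.11. XPO1, the receptor of the leucine-rich export signal, had 3.37, 4.13 and 3.39 and did not pass (limma adjusted p = 0.127). CSE1L, which returns importin alpha to the cytoplasm, was the lowest exportin at 2.79, 3.16 and 2.99. It kept 48.2%, 44.9% and 41.7% in monosomes, where the median gene had 31.0% ± 0.29 (SD, n = 3).

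The 6 genes of the Ran cycle went in both directions. RANGAP1, RCC1 and RANBP3 were higher and NUTF2 and RANBP1 were lower. By polysome share limma called 0 of the 6 in either direction (2 higher and 0 lower at an unadjusted p under 0.05), with adjusted p = 0.0602 for RANGAP1. Without replicate 1 it called 1 higher and 1 lower, and without replicate 3 it called 1 and 2. RANGAP1 had 4.31, 4.25 and 4.06, and RCC1 had 4.33, 3.55 and 4.64. RANBP3, a cofactor of XPO1, had 3.98, 3.73 and 4.37. RAN itself had 3.10, 2.35 and 3.53, with 34.8%, 54.0% and 23.5% in monosomes, and did not pass (limma adjusted p = 0.531). The 3 regulators above the median gene did not overlap with NUTF2 and RANBP1 in any gradient. Both sets were formed from these same loads, so this follows from the calls and adds nothing to them. Over the 3 gradients the range of RAN overlapped with those of NUTF2 and RANBP1, through its low value in replicate 2. Within gradients, RAN lay above RANBP1 in replicates 1, 2 and 3 and above NUTF2 in replicates 1 and 3. It lay below RCC1 in replicates 1, 2 and 3. Outside the cycle, RANBP9, a scaffold protein first found through Ran, was called higher at 4.56, 3.50 and 4.0. Its call did not pass without replicate 1 (limma adjusted p = 0.262). The paralogue RANBP10 had 2.91, 3.32 and 3.28 and did not pass. The log2 gap between RANBP9 and RANBP10 was 0.65, 0.079 and 0.29 in the 3 gradients, smallest in replicate 2, and was not tested.

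The next question was where in the gradient each mRNA gained or lost. Normalized counts were compared between fractions as log2(value + 1) over the 9 libraries. In heavy polysomes against monosomes, 25 of 71 members were higher (35.2%, against 24.7% of all genes) and 2 were lower, RANBP6 and NUTF2 (2.82%, against 24.4%). The counts of higher members were 5, 29 and 14 without replicate 1, 2 and 3, and those of lower members 1, 4 and 1. RGPD8, RAE1, NUP37, KPNA4 and NUP62CL were called higher and RANBP6 lower with any 1 replicate left out.

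All 4 membrane proteins that passed the filter were among the higher ones, as were 4 of 6 importins alpha. Without replicate 1 limma called 0 membrane proteins (1 at an unadjusted p under 0.05) and 1 importin alpha, and without replicate 3 it called 0 (4 at an unadjusted p under 0.05) and 2. Among members past the threshold, the largest gains in heavy polysomes were those of RGPD8 (log2 difference 2.86 ± 0.60, SE), RAE1 (2.21 ± 0.40) and NUP37 (1.99 ± 0.45). The value of RGPD8 alone is uncertain, since 92.8% of its windows are found in other genes, and RGPD5 and RGPD6 did not pass this contrast. Summed, RGPD5, RGPD6 and RGPD8 had 18.4%, 44.7% and 20.8% in heavy polysomes and 7.75%, 14.8% and 11.1% in monosomes. RAE1 had normalized counts of 386, 346 and 397 in monosomes and 1785, 2540.3 and 1169 in heavy polysomes, which did not overlap. RANBP6 fell by 4.90 on the log2 scale. The log2 difference of NUTF2 was −1.66 (limma adjusted p = 0.0117). NUTF2's heavy counts were 3131, 1865.5 and 2996 against 9356, 5283 and 11096 in monosomes. With the replicate as a block, 28 members were higher: KPNB1, NUP93, IPO11 and XPO5 passed and TPR no longer did. KPNB1's adjusted p in limma went from 0.101 to 0.0314, and TPR's from 0.046 to 0.0602.

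In light polysomes against monosomes, 9 members were higher (12.7%, against 8.47% of all genes) and 2 were lower (2.82%, against 10.2%). Over the 66 members other than the RGPD genes, 6 were higher and 2 lower. RANBP2, POM121 and POM121C, which also share windows with other genes, were among these 6. The share of higher members thus rests in part on genes that reads do not fully tell apart. The 3 largest gains were RGPD8 at 3.86 ± 0.60 (SE), RGPD6 at 2.64 ± 0.52 and RGPD5 at 1.86 ± 0.42. RANBP2, NXT1, TPR, POM121, POM121C and NUP62CL made up the rest, and RANBP6 (−4.83 ± 0.38) and NXF1 (−1.19 ± 0.35) were the 2 lower. Counts of higher members were 1, 12 and 4 without replicate 1, 2 and 3, and of lower members 1, 10 and 1. Without light library 2 alone, 9 were higher and 4 lower, and NUP62CL did not pass (limma adjusted p = 0.0799).

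**Figure D3:**
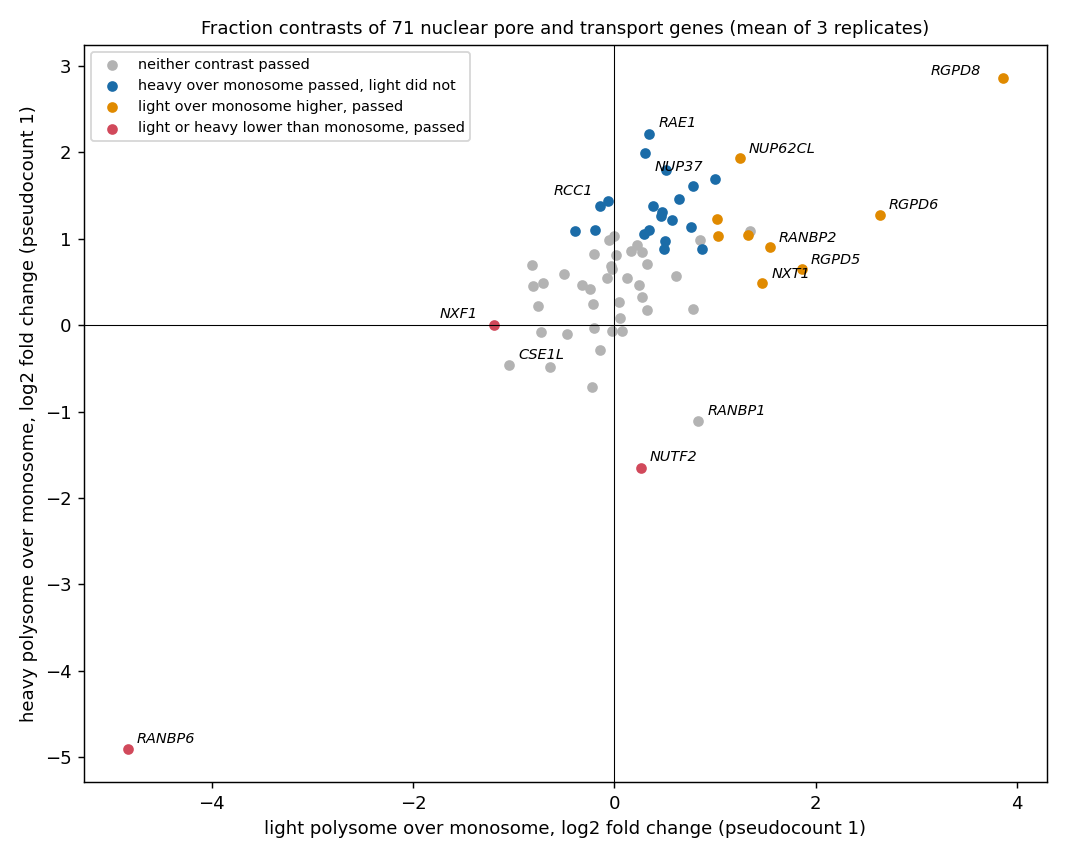
Log2 fold change of light polysomes over monosomes (x axis) and of heavy polysomes over monosomes (y axis) for the 71 members, from 9 libraries; colours give which contrast passed limma's adjusted p of 0.05. RANBP6 sits alone at the lower left, RGPD8 at the upper right, and NXF1 and NXT1 lie on opposite sides of the vertical line.

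NXF1 and NXT1 form 1 heterodimer, the receptor that carries bulk mRNA through the pore, yet their mRNAs lay in different fractions. NXT1 had 51.0%, 59.8% and 48.5% in light polysomes, while NXF1 had 16.7%, 20.9% and 15.3%. The groups did not overlap. The log2 ratio of light polysomes to monosomes was 1.24, 2.33 and 0.84 for NXT1 and −1.20, −0.53 and −1.86 for NXF1. Their difference was 2.43, 2.87 and 2.69, a mean of 2.66 ± 0.22 (SD, n = 3), and the pair was chosen after its values were seen. Both loads were near the median gene, 3.14, 3.32 and 2.94 for NXT1 and 3.50, 3.76 and 2.69 for NXF1, although the mRNA of NXF1 was divided between the ends of the gradient. It had 38.4%, 30.2% and 55.5% in monosomes and 44.9%, 48.9% and 29.3% in the heavy fraction. NXT1 has a coding length of 420 nt and NXF1 of 1857 nt. The light-over-monosome call of NXF1 did not pass without replicate 1 (limma adjusted p = 0.219) or 3 (0.337), and that of NXT1 did not without replicate 1 (0.114).

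RANBP2, RGPD5, RGPD6 and RGPD8 peaked in light polysomes in replicates 1 and 3. RGPD8 had 72.7%, 40.2% and 73.2% there, RGPD6 79.7%, 41.6% and 65.0%, RGPD5 68.6%, 39.4% and 64.9%, and RANBP2 57.2%, 34.0% and 58.5%. Replicate 2 was the lowest in all 4, and there heavy polysomes held the larger share, for RGPD8 44.8%. Monosome counts of RGPD8 were small, 64.7, 223 and 35.5 normalized counts, against 1184, 595 and 2311 in light polysomes.

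Because RGPD5, RGPD6 and RGPD8 share most of their windows, normalized counts were also summed, a step added after the values were seen. RGPD5, RGPD6 and RGPD8 together had 73.9%, 40.5% and 68.1% in light polysomes and 7.75%, 14.8% and 11.1% in monosomes. RANBP2 with the 7 RGPD genes had 70.2%, 39.3% and 66.1% in light polysomes. In replicates 1 and 3 the sums peak in light polysomes, as RANBP2, RGPD5, RGPD6 and RGPD8 do singly. RGPD3 and RGPD4, with a mean of 24.1 and 17.7 reads, passed none of the contrasts. RGPD3 peaked in light polysomes in replicate 1 alone and in heavy polysomes in replicates 2 and 3. Among the 5 RGPD genes that passed the filter, the highest load was that of RGPD4, at 3.37, 4.05 and 3.65, and the lowest that of RGPD5, at 2.87, 3.89 and 2.88; both ranges hold replicate 2 at the top. The light gain of RGPD8 was called with any 1 replicate left out. RANBP2's was not without replicate 1 (limma adjusted p = 0.106) or 3 (0.234), RGPD5's and RGPD6's not without replicate 1 (0.11 and 0.0993).

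Heavy against light polysomes gave 13 higher members (18.3%, against 14.7% of all genes) and 4 lower (5.63%, against 17.5%). Among those past the threshold, RAE1 (1.86 ± 0.40, SE), NUP37 (1.69 ± 0.45) and RCC1 (1.52 ± 0.40) had the largest gains, and RANBP1 (−1.94 ± 0.51), NUTF2 (−1.92 ± 0.48) and RGPD5 (−1.22 ± 0.42) the largest losses; NXT1 was the remaining lower member. Of the 3 fraction contrasts, this was the 1 passed by NUP85, NUP43, NUP62, NUP35 and IPO13. NUP85, an outer ring subunit, had 17.1%, 21.7% and 14.2% in light polysomes, 31.3%, 21.3% and 43.6% in monosomes and 51.6%, 56.9% and 42.2% in heavy ones, so light polysomes held its smallest share in replicates 1 and 3. IPO13, an importin beta receptor that also exports cargo, had 21.6%, 20.8% and 23.4% in light polysomes.

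The counts of heavy against light polysomes rested on few libraries. Limma called 0 members in either direction without replicate 1 (8 higher and 2 lower at an unadjusted p under 0.05) and 0 without replicate 3 (10 and 2), where it also called 0 and 1 of all 12720 genes, and 28 higher and 11 lower without replicate 2. The members newly lower without replicate 2 were IPO7, NUP214, RANBP2, RGPD6, RGPD8, TPR and XPO4. Without light library 2 alone, 26 were higher and 7 lower, and NXT1 did not pass (limma adjusted p = 0.0526). With the replicate as a block, KPNB1 (limma adjusted p = 0.0359) and NUP93 joined the higher members.

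The gradients differed from each other by coding length, and the load of replicate 2, set against the other replicates, rose with it. Of the 71 members, 48 had their highest load in replicate 2 and 18 their lowest, against 34.6% and 47.6% of all genes. RAN lay 0.49 below the mean of replicates 1 and 3 on the log2 scale (a difference of −0.49), while NUP107 lay 0.61 above. The median difference was −0.29 over 7 members of up to 1000 nt of coding sequence, 0.025 over 21 of up to 2000 nt, 0.19 over 28 of up to 4000 nt and 0.27 over 15 longer ones. Across the members the difference rose with coding length (Spearman's rho 0.634, n = 71 genes; 0.603 over 66 without the RGPD genes), and across 12715 genes rho was 0.494. The same measure, a replicate against the mean of the other replicates, gave rho of −0.638 for replicate 1 and −0.222 for replicate 3 over the members, and −0.272 and −0.409 over all genes. The differences of a gene cancel out over the replicates by construction. Where replicate 2 rises, the others must fall on balance, so these values are not separate observations. The genes share the same 9 libraries and are not independent, so this is a description. The part of coding length or of the library in each member's value was not tested.

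**Figure D4:**
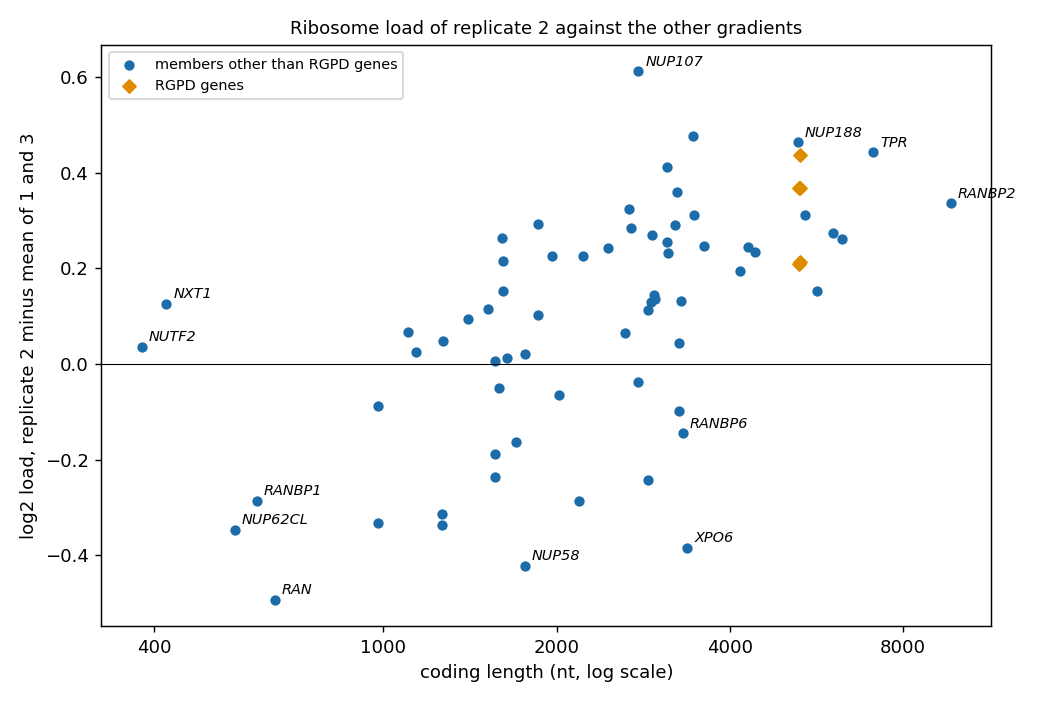
Log2 ribosome load of replicate 2 minus the mean of replicates 1 and 3 (y axis) against coding length in nt (x axis, log scale), 1 point per member. RAN (−0.49) is the lowest point and NUP107 (0.61) the highest; all 15 members of more than 4000 nt lie above 0, while NUTF2 and NXT1, the shortest, also lie above it and XPO6 and RANBP6 below.

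Coding length itself ranked the members' mean loads little. The members' median coding length was 2769 nt against 1404 nt for all genes, and Spearman's rho between coding length and mean load was −0.231 over the 71 members and 0.253 over 12715 genes. Pearson's r with log2 coding length was −0.0521 over the members, 0.00807 without the RGPD genes and RANBP6, and 0.283 over all genes. Members of more than 1000 and up to 2000 nt had the highest median load, 3.78, where all genes of that length had 3.30. Those of more than 4000 nt had 3.49, close to the 3.39 of all genes that long. Members of up to 1000 nt had 3.13 against 2.82.

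Other genes that work at the pore, named in a separate list, were read in the same way. Of 36 listed, 34 were in the table and passed the filter; 15 had a load above the median gene by limma (22% of all genes did) and 7 below it (24.7% of all genes). These counts were 3 and 4 without replicate 1, 19 and 6 without replicate 2, 8 and 7 without replicate 3, and 8 and 0 by polysome share (10 and 3 at an unadjusted p under 0.05). Their median was 3.59 ± 0.11 (SD, n = 3 gradients). THOC3 and ALYREF, both of the mRNA export machinery that loads NXF1, were the highest, THOC3 at 4.83, 3.83 and 4.77 and ALYREF at 4.92, 3.37 and 4.91. SEM1, a small subunit of the proteasome and of an mRNA export complex, was the lowest at 2.06, 1.81 and 2.18, followed by NXT2, a paralogue of NXT1, at 2.19, 2.09 and 2.09. SEM1 had 6.76%, 8.49% and 7.16% in heavy polysomes. THOC3 and ALYREF were lowest in replicate 2, as RCC1 and NUP37 were.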

How the data were processed

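Polysome fractions of HEK293 cells under vehicle were sequenced as single-end reads. featureCounts assigned them to genes on GRCh38, per the submitters' processing notes; aligner, strand use and counting options: not given in the sources used here. For the deposited signal, the authors divided each library's gene counts by its size factor: whole reads were recovered for 100% of values at a tolerance of 0.01. The deposited percent of a gene in a fraction was recomputed to within 5.5e-08, and the authors' deposited mean ribosome load, a score, to within 4.61e-09 from weights 1, 2.5 and 6 solved over genes with reads in every gradient. Deposited log2 ratios and p-values of the authors were not used.

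Loads (log2, minus the median gene) and log2(value + 1) were tested with limma 3.58.1 (trend, R 4.3.3), with Benjamini-Hochberg adjustment over 12720 genes at 0.05. On the recovered reads, edgeR 4.0.16 called 3063 genes higher and 3194 lower in heavy polysomes against monosomes, DESeq2 1.42.0 called 3166 and 3434, and limma 3145 and 3101. Scripts were tested on simulated data. The labels give the replicate number as a batch, and each replicate was divided into the fractions, so the numbers pair libraries; deviations of same-numbered libraries correlated between -0.539 and 0.391. Gene models came from GENCODE on GRCh38 (13658 identifiers matched). All members may be named; full values go to the extremes by load, role and contrast, and to RAN, KPNB1, XPO1 and NXF1. Members and lists were chosen with earlier results of these data known.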

Additional observations from a re-analysis of the deposited data

How the results depend on the processing

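Counts of members moved mostly with the replicates. With 1 replicate left out, higher loads ranged from 4 to 25 and lower from 2 to 3; heavy against monosome from 5 to 29 higher and 1 to 4 lower; light against monosome from 1 to 12 and 1 to 10; heavy against light from 0 to 28 and 0 to 11. Without light library 2 the counts were 4 lower in light against monosome, and 26 higher and 7 lower in heavy against light. Against the mean gene 32 loads were higher, and by the share in both polysome fractions 1 was lower; the cause was not tested. The replicate block gave 28 higher and 2 lower (heavy against monosome), 9 and 2 (light against monosome) and 15 and 4 (heavy against light), and changed no call of a member beyond those named. Other filters, the pseudocount of 5, weights 1, 3 and 8, edgeR and DESeq2 left every count within 1.5 times. Values of called members and of RAN, KPNB1, XPO1 and NXF1 kept direction and side of the threshold 677 times, lost the threshold 136 times, passed it newly 5 times and changed sign 17 times, the last in uncalled results alone. Over all 71 members, those that passed newly under at least 1 alternative numbered 21 for load, 13 for heavy against monosome, 12 for light against monosome and 23 for heavy against light, and those that changed sign 24, 13, 28 and 17, with 0 called members among them.

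Among RAN, KPNB1, XPO1 and NXF1, sign changes in load were NXF1 (-10.36 percentage points by polysome share, -0.043 to 0.19 with 1 replicate left out) and RAN (-0.23 to 0.067 with 1 left out). In heavy against monosome they were NXF1 (-0.35 to 0.46 with 1 left out, -0.017 with edgeR, -0.048 with DESeq2) and RAN (-0.81 to 0.32). In light against monosome they were KPNB1 (-0.50 to 0.079 with a replicate or light library 2 left out, 0.087 with edgeR, 0.022 with DESeq2), XPO1 (-0.089 to 0.15) and RAN (-0.54 to 0.29). In heavy against light it was RAN (-0.35 to 0.031). Low counts limit RGPD3 and RGPD4, and POM121L2, RGPD1 and RGPD2 were too low to test.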
